A study of Mus musculus with 9 samples.

Results

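The aryl hydrocarbon receptor and 6 genes read as its response were followed in cultured mouse brown fat cells treated with either of 2 compounds. The genes were Ahr, Ahrr, Tiparp, Cyp1a1, Cyp1a2, Cyp1b1 and Aldh3a1. They were chosen by symbol, as 7 of the 30860 genes measured, and each symbol had a single gene feature on the array, so the choice by highest mean level among features of a symbol decided nothing. The list itself was drawn up with results of these data known, Cyp1b1's among them, so the differences below describe the genes and are no independent evidence for the list.

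The cells were fully differentiated brown fat cells of the C57BL/6 strain in culture, and no cell in the series carries a labelled gene alteration. They received the solvent DMSO alone, AM73 at 10 µM or AM80 at 10 µM for 8 h, and the series' title presents both compounds as activators of PPARGC1a1, a coactivator of mitochondrial and thermogenic genes. RNA was measured on whole-transcript arrays that report log2 levels, with 3 arrays in each of the 3 groups. The labels call the 3 arrays technical replicates and do not say whether they come from separate cultures, so p-values speak only to the scatter among arrays. On the first principal component of all genes (58.7% of the variance) the AM80 arrays stood apart, at 31.2 to 74.7, and DMSO replicate 3, at 2.51, was the nearest to them of the remaining arrays, which lay at -22.6 or lower.

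The receptor is a transcription factor of the bHLH-PAS family that waits in the cytoplasm with HSP90 and co-chaperones such as p23. Bound by a ligand such as a planar aromatic compound or a tryptophan metabolite, it enters the nucleus, pairs with ARNT and binds the core sequence GCGTG in its target genes. Its best known targets are cytochromes P450 of family 1, while the repressor AHRR and the ADP-ribosyltransferase TIPARP limit its activity. In fat cells it is known mainly for holding back differentiation and for its part in the response to pollutants.

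The promoters of Cyp1b1 and Tiparp are shown because these were the members that moved, and that of Ahrr because it held the most copies of the core motif among the members, although Ahrr passed the test in no comparison. The RefSeq table on build GRCm38.p6 held a start site for 5 of the 7 genes, and Ahr and Aldh3a1 were not among them. The 250 bases before the start are printed 5′ to 3′ on the gene's own strand, with every GCGTG, or CACGC where the motif lies on the other strand, in capitals. The windows are chr17:79715062-79715311 on the minus strand for Cyp1b1, chr3:65528197-65528446 on the plus strand for Tiparp and chr13:74292332-74292581 on the minus strand for Ahrr.
Cyp1b1: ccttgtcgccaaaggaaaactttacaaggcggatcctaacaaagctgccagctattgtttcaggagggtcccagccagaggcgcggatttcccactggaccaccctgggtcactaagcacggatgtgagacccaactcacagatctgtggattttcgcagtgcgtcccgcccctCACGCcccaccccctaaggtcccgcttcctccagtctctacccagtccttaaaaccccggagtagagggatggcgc
Tiparp: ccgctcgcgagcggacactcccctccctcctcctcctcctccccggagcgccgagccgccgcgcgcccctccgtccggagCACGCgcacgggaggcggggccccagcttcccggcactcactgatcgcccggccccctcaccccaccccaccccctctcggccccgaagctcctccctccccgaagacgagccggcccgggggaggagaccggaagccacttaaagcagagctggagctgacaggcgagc
Ahrr: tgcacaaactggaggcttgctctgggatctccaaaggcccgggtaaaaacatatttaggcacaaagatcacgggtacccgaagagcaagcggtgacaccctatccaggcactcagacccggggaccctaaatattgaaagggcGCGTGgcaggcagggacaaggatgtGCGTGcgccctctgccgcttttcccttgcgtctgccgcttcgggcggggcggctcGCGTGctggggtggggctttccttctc
Cyp1b1 held 1 copy, on the other strand, whose first printed base lay at -76 from the start, and Tiparp held 1, also on the other strand, at -170. Ahrr held 3 copies, at -107, -82 and -27, all on the printed strand, and 1 of them was part of the longer TNGCGTG. Cyp1a1 held 1 copy, at -54, and Cyp1a2 held 0. Of all 32851 windows of this length, 28.2% held GCGTG on either strand and 4.1% held TNGCGTG. A match is a string of letters and no measured binding, and distal enhancers lie outside these windows.

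**Figure D1:**
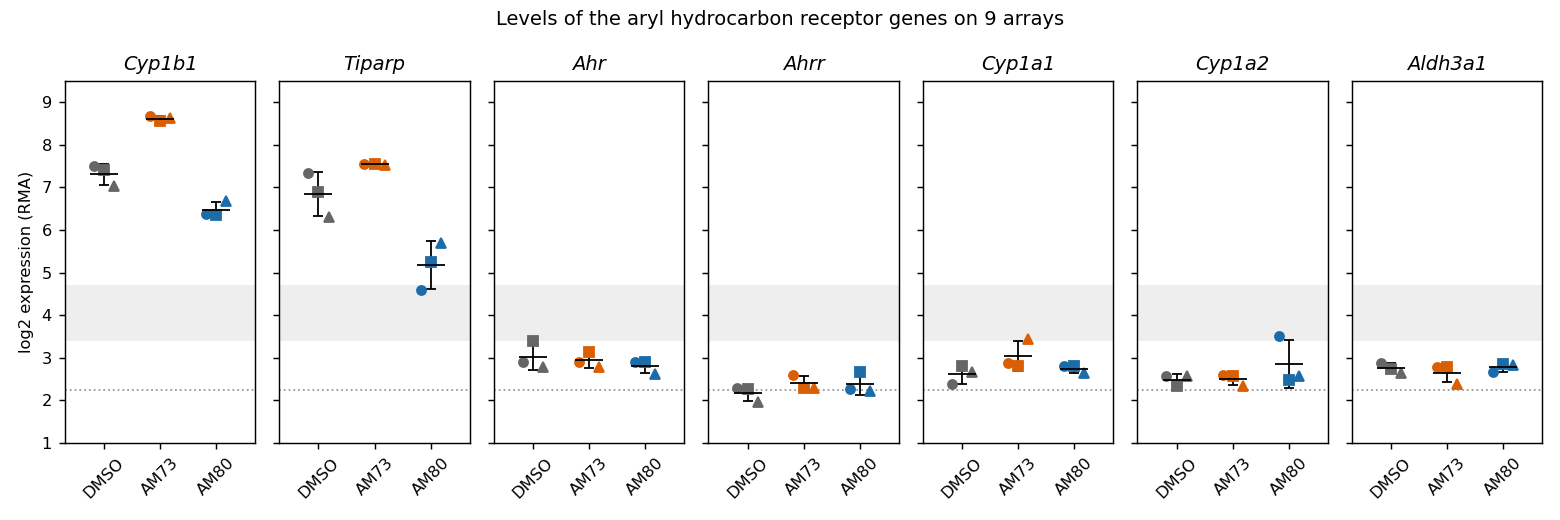
Log2 level of each gene on each of the 9 arrays, by group (circle, replicate 1; square, replicate 2; triangle, replicate 3), with the group mean and SD as bars. The dotted line is the median of the background probes (median of the 9 arrays) and the grey band runs from 3.42 to 4.68, the lowest to the highest upper quartile of the background probes on an array. Cyp1b1 and Tiparp lie mostly above the band and differ by group, while the other 5 genes lie mostly below it.

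Cyp1b1 encodes a cytochrome P450 that oxidises oestrogens, retinoids and polycyclic hydrocarbons and, unlike Cyp1a1, is made in many cells of mesenchymal origin. It was higher with AM73 and lower with AM80 than with DMSO. The 26 probes of its feature (cluster 17347448, chromosome 17, 79706894 to 79715061, minus strand, mm10) gave log2 levels of 7.50, 7.40 and 7.03 with DMSO. They gave 8.67, 8.56 and 8.62 with AM73 and 6.38, 6.35 and 6.68 with AM80. No value of a group overlapped those of another, and the AM73 arrays lay closest together. The means were 7.31 ± 0.25, 8.62 ± 0.06 and 6.47 ± 0.18 (SD, n = 3), so the order was AM73, DMSO, AM80. In such bulk RNA a smaller share of cells making a gene and less of its RNA per cell cannot be told apart.

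With AM73, Cyp1b1 rose by 1.31 ± 0.14 (SE) over DMSO on the log2 scale, or 2.47-fold (95% interval of the log2 difference 0.98 to 1.63, limma, adjusted p = 0.0165). That placed it 26th from the top of all 30860 differences. It was the 1 member that passed, where 0.12% of all genes passed in either direction, 0.104% upward and 0.0162% downward. The call held in 11 of 24 alternative fits. It was lost without any single AM73 array (adjusted p = 0.0778, 0.0873 and 0.108) and without DMSO replicate 1 or 2 or AM80 replicate 2 (0.0654, 0.0885 and 0.0536), while the difference stayed between 1.17 and 1.40 with any 1 array left out.

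With AM80, Cyp1b1 fell by 0.84 ± 0.14 on the log2 scale against DMSO, or 1.79-fold (interval -1.16 to -0.52, limma, adjusted p = 0.00633). AM80 differed from AM73 by -2.15 ± 0.14 (interval -2.47 to -1.82), or 4.43-fold (limma, adjusted p = 0.000641). Both calls held without any 1 array. Without DMSO replicate 3 the differences from DMSO were 1.17 with AM73 (adjusted p = 0.0214) and -0.98 with AM80, both still past the test (limma). In these comparisons 2 of the 7 members passed, both downward, beside large shares of all genes: 13.9% of all genes passed against DMSO (6.9% as rises and 7.04% as falls) and 19.1% passed between the compounds (9.92% as higher and 9.22% as lower with AM80). The 2 comparisons with DMSO share its arrays.

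Tiparp encodes a mono-ADP-ribosyltransferase that the receptor switches on and that in turn modifies the receptor and shortens its activity. It fell with AM80 and did not pass the test with AM73. Its feature (cluster 17398082, chromosome 3, 65528410 to 65555518, plus strand, 28 probes) read 7.34, 6.90 and 6.30 with DMSO. It read 7.56, 7.55 and 7.53 with AM73 and 4.58, 5.24 and 5.70 with AM80. The value on AM80 replicate 1 lay under that array's upper quartile of background probes, 4.68. The groups did not overlap, although the DMSO and AM80 arrays were spread widely (means 6.85 ± 0.52 and 5.17 ± 0.56, SD, n = 3) and the AM73 arrays hardly at all (7.55 ± 0.02).

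Against DMSO, Tiparp fell by 1.67 ± 0.30 (SE) on the log2 scale with AM80, or 3.19-fold (interval -2.34 to -1.01, limma, adjusted p = 0.00702). It was 241st from the lowest difference of all genes. AM80 differed from AM73 by -2.37 ± 0.30 (interval -3.04 to -1.71), or 5.18-fold (limma, adjusted p = 0.001), the 67th lowest of all. These 2 calls held without any 1 array. The AM73 difference from DMSO was 0.70 ± 0.30 (interval 0.04 to 1.36), with an unadjusted p of 0.0409 and, by limma over all genes, an adjusted p of 0.637, and it passed in 0 of 24 alternative fits. All 3 AM73 values lay above all 3 DMSO values, as was so for 5.71% of all genes upward in that comparison. Without DMSO replicate 3, the lowest DMSO array for both genes, the AM73 difference of Tiparp was 0.43 and the AM80 difference -1.95, the second still past the test.

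Across the 9 arrays the levels of Cyp1b1 and Tiparp had a Pearson r of 0.92, given as a description of arrays that share their groups. Among 14234 other named genes of sufficient level, those whose level ran most like that of Cyp1b1 were Ddx17 (r = 0.987), Homer1, Arl5a, Gbe1 and Cdc42bpa (r = 0.983). Cdc42bpa, for example, had means of 6.80, 8.02 and 5.61 in DMSO, AM73 and AM80 cells. Those most like Tiparp were Rbpsuh-rs3 (r = 0.998), Smg1, Msl2, Usp24 and Api5 (r = 0.996), and Smg1 averaged 6.51, 7.18 and 4.97 in the same order. The 2 lists share no gene. Each of these genes has the order AM73, DMSO, AM80, which follows almost of itself from picking them by likeness to Cyp1b1 or Tiparp.

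**Figure D2:**
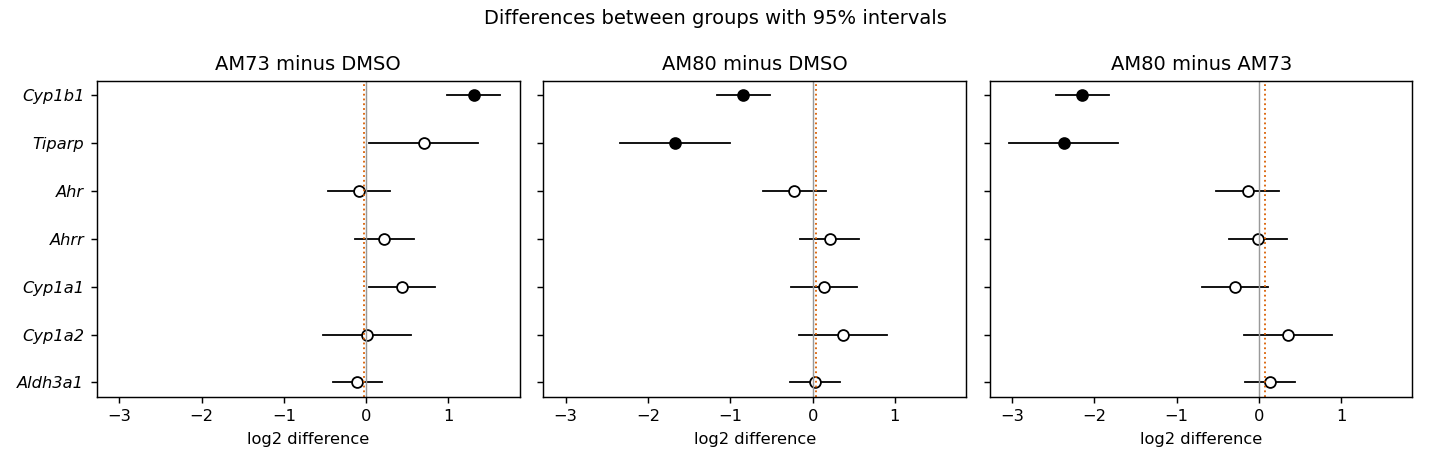
Log2 differences of the 7 genes in the 3 comparisons (points) with 95% intervals of the fit (bars); filled points passed an adjusted p of 0.05 and the dotted line is the median difference of all genes. Cyp1b1 passed in all 3 comparisons and Tiparp in both with AM80, while the intervals of the other 5 genes include 0 except that of Cyp1a1 with AM73 (0.03 to 0.83).

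The receptor's own gene and its other targets were dim. Ahr, Ahrr, Cyp1a1, Cyp1a2 and Aldh3a1 had group means from 2.17 to 3.04, all under 3.42, the lowest upper quartile of the 23 antigenomic probe sets (probes that match no mouse gene) on any array. Over the 9 arrays 1 of their values lay above the upper quartile of its own array. None of the 5 passed the test in any comparison, where their adjusted p ran from 0.318 to 0.996 (limma), and no group of theirs stood clear of another. At such levels the arrays set a bound on what could be seen: the widest 95% interval reached 0.54 log2 to either side.

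Ahr, the receptor (cluster 17280729, chromosome 12, 35497974 to 35535038, minus strand, 30 probes), read 2.89, 3.38 and 2.79 with DMSO, 2.89, 3.13 and 2.78 with AM73, and 2.89, 2.89 and 2.61 with AM80. Ahrr, the repressor that competes for ARNT (cluster 17294352, chromosome 13, 74211118 to 74292331, minus strand, 25 probes), read 2.29, 2.27 and 1.96, then 2.60, 2.29 and 2.29, then 2.26, 2.67 and 2.21 in the same groups. The groups overlapped in both genes. Ahr differed from DMSO by -0.09 with AM73 (interval -0.47 to 0.30) and by -0.22 with AM80 (-0.61 to 0.16), and Ahrr by 0.22 (-0.14 to 0.58) and 0.21 (-0.15 to 0.56). Ahrr was the 1 member whose mean lay under the 40th percentile of all genes, so 6 of the 7 passed that filter.

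Cyp1a1, the textbook marker of receptor activity (cluster 17517770, chromosome 9, 57687928 to 57703824, plus strand, 21 probes), read 2.37, 2.80 and 2.66 with DMSO, 2.88, 2.80 and 3.44 with AM73, and 2.80, 2.80 and 2.63 with AM80. Its highest value, AM73 replicate 3, was the 1 value above its array's background quartile (3.42), and AM73 replicate 2 equalled DMSO replicate 2. The AM73 difference of 0.43 had an unadjusted p of 0.0381 and an adjusted p of 0.633 (limma). Its neighbour Cyp1a2, the liver enzyme that clears caffeine (cluster 17527581, chromosome 9, 57676937 to 57683655, minus strand, 22 probes), read 2.56, 2.33 and 2.56, then 2.59, 2.56 and 2.34, then 3.51, 2.48 and 2.56. Its mean of 2.85 ± 0.57 with AM80 (SD, n = 3) rested on replicate 1, and the other two AM80 arrays lay within the range of the remaining groups. Aldh3a1, an aldehyde dehydrogenase induced by receptor ligands in liver (cluster 17250567, chromosome 11, 61207537 to 61218421, plus strand, 20 probes), read 2.88, 2.74 and 2.64, then 2.78, 2.77 and 2.39, then 2.65, 2.86 and 2.83. Its differences from DMSO were -0.11 with AM73 and 0.03 with AM80, both smaller than their SE of 0.13.

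Over the 7 genes the median difference was 0.22 for AM73 against DMSO, 0.03 for AM80 against DMSO and -0.14 for AM80 against AM73. Over all genes it was -0.02, 0.04 and 0.07. Each median of the 7 was the value of a dim member, Ahrr, Aldh3a1 and Ahr in turn, so it describes genes near background. In each comparison 2 of the 7 had groups that did not overlap, and these were Cyp1b1 and Tiparp each time. For all genes the share without overlap was 5.71% upward and 6.87% downward with AM73, 14.9% upward and 10.6% downward with AM80 against DMSO, and 18.9% upward and 12.7% downward between the compounds.

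Genes that carry or neighbour the pathway were read from 5 lists of 35 genes, of which 31 were measured. With AM73, 0 of the 31 passed (the lowest limma adjusted p was 0.239), with differences from -0.42 to 1.01. With AM80 against DMSO, 3 rose and 5 fell, and the lists' median was 0.03, beside 0.04 for all genes. Between the compounds 3 were higher and 4 lower with AM80. These shares, 8 of 31 and 7 of 31, stand beside 13.9% and 19.1% of all genes.

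Of 5 partners and chaperones, 3 fell with AM80 and 0 rose. Arnt, the partner without which the receptor does not bind DNA, read 8.09, 8.07 and 7.98 with DMSO, 8.08, 8.14 and 8.11 with AM73, and 7.10, 7.39 and 7.60 with AM80. It fell by 0.68 ± 0.13 on the log2 scale with AM80 (SE, limma, adjusted p = 0.00896), and its AM73 values overlapped DMSO. Hsp90aa1, the inducible HSP90, fell by 1.00 ± 0.15 (adjusted p = 0.00375), and Ptges3, which encodes p23, by 0.66 ± 0.17 (adjusted p = 0.0324). The constitutive Hsp90ab1 differed by 0.21 (adjusted p = 0.288), and Arnt2 was dim.

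Among 7 bHLH-PAS relatives that use Arnt as partner, Hif1a, the oxygen-regulated subunit, fell with AM80 and the other 6 did not pass. It read 6.67, 6.55 and 5.91 with DMSO, 6.39, 6.52 and 6.60 with AM73 and 4.41, 4.51 and 5.04 with AM80, a fall of 1.72 ± 0.22 on the log2 scale (SE, limma, adjusted p = 0.00246). Its values on AM80 replicates 1 and 2 lay under those arrays' background quartiles of 4.68 and 4.53. DMSO replicate 3 was again the DMSO array nearest to AM80. Epas1, which encodes HIF-2α, differed by -0.29 (adjusted p = 0.293).

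Of 8 further genes reported to respond to the receptor, 3 rose with AM80 and 1 fell. Selenbp1, a selenium-binding protein with methanethiol oxidase activity, rose by 1.44 ± 0.23 (SE, limma, adjusted p = 0.00452), Pmm1, a phosphomannomutase, by 0.90 ± 0.19 (adjusted p = 0.013) and Htatip2 by 0.42 ± 0.12 (adjusted p = 0.0471). After scaling to the poly-A control RNAs these 3 differences were 0.60 for Selenbp1, 0.06 for Pmm1 and -0.42 for Htatip2. Nfe2l2, which encodes the oxidative stress factor NRF2, fell by 0.70 ± 0.17 (adjusted p = 0.0242). Selenbp1 also stood above DMSO on all 3 AM73 arrays, by 1.01 ± 0.23 (adjusted p = 0.239), and of these 8 it is the one whose probes the annotation gives as cross-hybridising.

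Of 8 other enzymes of the receptor's detoxification battery, 5 were measured and 0 passed in any comparison. Nqo1, the quinone reductase that NRF2 drives as well, was the one well above background. It read 7.51, 7.83 and 7.83 with DMSO and 8.04, 7.85 and 8.15 with AM73, a difference of 0.29 ± 0.23 (SE, limma, adjusted p = 0.783), and 7.14, 7.93 and 8.09 with AM80, which spanned the DMSO values. Of 7 enzymes that turn tryptophan into ligands, 6 were measured, and 1, Ido2, which lay under its array's background quartile on every array, passed, between the compounds (0.73 higher with AM80, limma, adjusted p = 0.0367, held in 8 of 23 alternative fits, and at -0.40 after poly-A scaling).

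**Figure D3:**
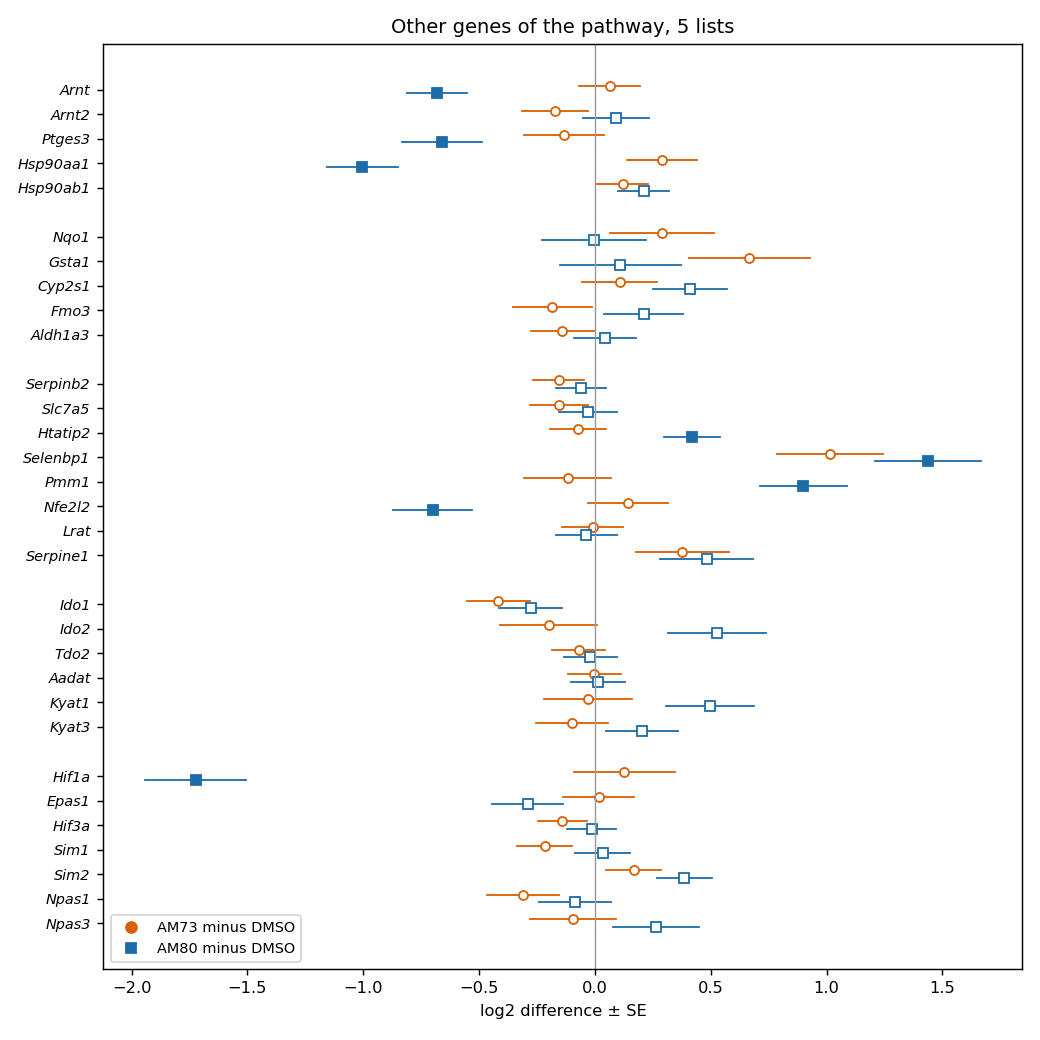
Log2 difference from DMSO with its SE for the 31 measured pathway genes, AM73 as circles and AM80 as squares, in the order partners and chaperones, battery enzymes, other reported targets, tryptophan enzymes and bHLH-PAS relatives. Filled symbols passed an adjusted p of 0.05: 8 squares (3 to the right, 5 to the left of 0) and 0 circles.

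Several calls on these lists were weak. Against DMSO, Ptges3 kept its call in 8 of 23 alternative fits, Htatip2 in 6, Nfe2l2 in 12 and Pmm1 in 16, compared with 19 for Arnt and 20 each for Hsp90aa1, Selenbp1 and Hif1a. With 1 array left out, the call held in 1 of 9 cases for Ptges3, in 2 for Htatip2, in 5 for Nfe2l2 and in 7 for Pmm1.

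The AM80 arrays stood apart in more than these genes. The poly-A control RNAs had medians of 5.20 to 5.85 with AM80, 4.51 to 4.83 with DMSO and 4.08 to 4.68 with AM73, and the 6 brightest antigenomic sets averaged 5.69 to 6.12, 5.21 to 5.95 and 4.52 to 5.48. Both run opposite to Cyp1b1 and Tiparp over the groups. Scaled to the poly-A controls, the median of all genes shifted by -0.84 for AM80 against DMSO, and relative to DMSO Cyp1b1 was then -1.68 and Tiparp -2.51. With the bright background sets as a covariate, the AM80 differences from DMSO were -0.76 and -1.49 and passed (limma, adjusted p = 0.0228 and 0.0241), but the AM73 call of Cyp1b1 (1.19, adjusted p = 0.107) and both calls between the compounds were lost, with differences of -1.95 for Cyp1b1 (adjusted p = 0.0609) and -1.91 for Tiparp (adjusted p = 0.0929).

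All 3 AM80 columns end in the number 5, while DMSO and AM73 have 1 such array and 2 ending in 7 each, and no label says what the number is. With it as a term of the fit the 5 calls on Cyp1b1 and Tiparp held (limma, adjusted p from 0.0093 to 0.0453). Among arrays ending in 5, which leave 1 DMSO and 1 AM73 array, Cyp1b1 differed from DMSO by 1.16 with AM73 and by -0.93 with AM80, and Tiparp by -1.73 with AM80 (adjusted p = 0.843, 0.321 and 0.346). Among those ending in 7, Cyp1b1 was 1.38 higher with AM73 (adjusted p = 0.795).

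**Figure D4:**
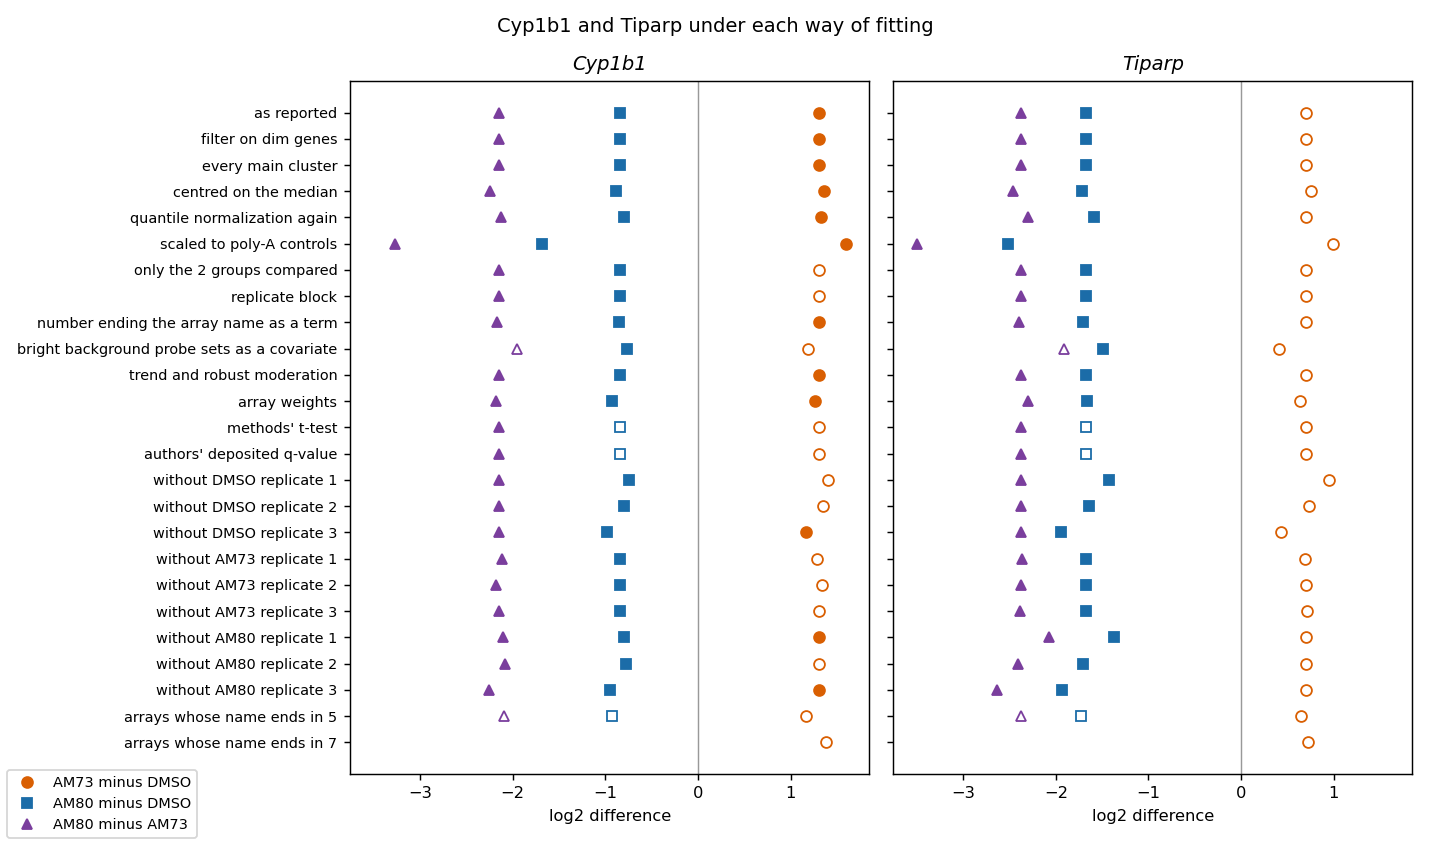
Log2 differences of Cyp1b1 (left) and Tiparp (right) as reported and under each alternative fit or selection of arrays, filled where the adjusted p is under 0.05. Every symbol keeps its side of 0, and the AM73 rise of Cyp1b1 is filled in 11 of its 24 alternatives, 3 of them fits that leave out 1 array.

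The arrays carried the markers of fat cells. Of 10 brown and general fat cell markers 6 lay above the background quartile on every array: Fabp4, Pparg, Adipoq, Plin1, Cebpa and Ppargc1a. Ucp1 and Cidea lay above it on 7 of the 9 arrays, Prdm16 on 8 and Dio2 on 0. The summed level of the 10 markers, as a mean of log2 values, ran from 7.02 to 7.19 with DMSO, 7.31 to 7.44 with AM73 and 7.25 to 7.29 with AM80. Ucp1, which defines brown fat, had a mean of 3.97 in DMSO cells and rose to 6.13 under AM73 and 5.90 under AM80 (limma, adjusted p = 0.0256 and 0.0032), and Dio2 was dim. On DMSO replicates 1 and 2 Ucp1 read 3.54 and 3.80, under those arrays' background quartiles of 4.2 and 4.015. Ucp1 was the 1 marker of the 10 to pass with AM73, while with AM80 2 rose and 2 fell against DMSO. The AM73 call of Ucp1 was lost without DMSO replicate 1, where 0 of all genes passed with AM73. Ppargc1a, the coactivator of the series' title, fell by 1.66 ± 0.21 (SE) on the log2 scale with AM80 (limma, adjusted p = 0.00237). With AM73 it differed from DMSO by -0.24 (limma, adjusted p = 0.796), and the groups overlapped. Pparg, the master regulator of fat cells, fell by 0.91 ± 0.15 with AM80 (limma, adjusted p = 0.00497). Cebpa, which acts with it, rose by 0.64 ± 0.17 (limma, adjusted p = 0.034), a rise smaller in size than the shift of -0.84 that poly-A scaling brings. Preadipocyte and fibroblast markers, whose cells are known to make Cyp1b1, averaged 4.28 to 4.40, 4.16 to 4.46 and 4.30 to 4.64, with 0 of 5 past the test. That average mixes bright and dim genes. Col1a1 and Col3a1 lay above the background quartile on all 9 arrays and Pdgfra on 8, while Thy1 and Dlk1 did so on 0. Of the macrophage, endothelial, muscle and liver markers 0 lay above the quartile on every array, and of these Acta1 of muscle rose with AM80 (0.90, limma, adjusted p = 0.00246).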

How the data were processed

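RNA levels were measured on 9 Affymetrix whole-transcript arrays from 100 ng of total RNA each, per the labels' protocols. The deposited log2 values were made by the authors with RMA in Expression Console 1.41, per the file headers and the submitters' processing notes, and annotated with NetAffx build 35 on mm10. RMA's quantile step forces arrays to nearly the same distribution, so a change shared by most genes would not show. The authors' deposited table also holds a p-value and a q-value per comparison, per the file headers from a Student's t-test, used here as alternatives only. The series table and the comparison table hold the same values (largest difference 0).

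Of 41345 features, 33793 were gene features (category main) and 32202 had a symbol. Symbols were updated by Entrez identifier against the RefSeq table (25099 matched, 1913 renamed), and the feature with the highest mean was kept for each of 30860 genes. The tool was limma 3.58.1 under R 4.3.3 (files read with data.table, version 1.17.8), where lmFit and eBayes took all 9 arrays in 1 model that left 6 residual degrees of freedom. Tests were two-sided, with Benjamini-Hochberg adjustment over all genes and a threshold of 0.05. "Dim" means that all group means lay under the lowest array's upper quartile of antigenomic probe sets. The fit was tested on simulated data with independent noise and differences added to AM73 alone. They held no shift shared across an array, so the fit was not tested on such shifts.

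Every member is named, pathway genes come from fixed lists (1 listed gene is not reported here and left out of every list count), and the genes most like a called member are the 5 with the highest Pearson r among genes above the 40th percentile of mean level, without predicted, microRNA, small RNA, olfactory and vomeronasal symbols. Members, lists and tests were chosen with earlier results of these data known. The number of arrays limits the precision. Replicate numbers did not pair the arrays: the deviations of the 9 same-numbered pairs correlated from -0.30 to 0.07. Alternatives covered normalization, scaling, filters, covariates, tests and leaving out each array; selecting arrays by the number ending their column name was added after the data were seen.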

Additional observations from a re-analysis of the deposited data

How the results depend on the processing

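The calls on Cyp1b1 and Tiparp with AM80 kept their direction and, against DMSO, passed in 20 of 23 alternatives each, and between the compounds in 21 of 23 each, leaving out any array included. The number of members called with AM73 was 1, and it was 0 with only the 2 groups compared (adjusted p of Cyp1b1 0.0914), with the replicate block (0.0824), with the background covariate, by the methods' t-test (0.329), by the authors' deposited q-value (0.224) and within arrays of either name number, and 0 to 1 with 1 array left out. With AM80 against DMSO it was 2, but 0 by the methods' t-test (0.181 for Cyp1b1 and 0.204 for Tiparp), by the authors' deposited q-value (0.139 and 0.161) and within arrays ending in 5, and 6 after scaling to the poly-A controls. Between the compounds it was 2, but 0 with the background covariate and within arrays ending in 5, and 7 after poly-A scaling, which moves nearly all genes downward. The causes were not tested.

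Genes called with AM73 numbered 37, and 124 after poly-A scaling, 2 with only the 2 groups compared, 6 with the replicate block, 18 with the name number as a term, 11 with the background covariate, 107 with array weights, 3 by the t-test, 3 by the deposited q-value, 0 within either name number (1772 and 1804 at an unadjusted p under 0.05, limma) and 0 to 37 with 1 array left out (0 without DMSO replicate 1, with 2547 at an unadjusted p under 0.05, limma). With AM80 against DMSO the 4302 calls became 24222 (24 higher and 24198 lower), 2086, 1440 with the name number, 2403 with the background covariate, 3 by the t-test, 5 by the deposited q-value and 0 within arrays ending in 5 (4256 at an unadjusted p under 0.05, limma), and 1740 to 5226 with 1 array left out. Between the compounds the 5907 became 28182 with poly-A scaling, 3513, 0 with the background covariate (4572 at an unadjusted p under 0.05, limma), 1414 by the t-test, 3475 by the deposited q-value and 0 within arrays ending in 5 (5446 at an unadjusted p under 0.05, limma). The replicate block changed no call on Cyp1b1 or Tiparp with AM80.

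Of the pathway genes, 0 were called with AM73, and 1 after poly-A scaling, with array weights or without DMSO replicate 3 (Selenbp1). Against DMSO 8 were called with AM80, 23 after poly-A scaling, 5 with only the 2 groups, with the replicate block or with the background covariate, 3 with the name number, 0 by the t-test, by the deposited q-value or within arrays ending in 5, and 4 to 7 with 1 array left out. Between the compounds 7 were called, 29 after poly-A scaling, 0 with the background covariate or within arrays ending in 5, 3 by the t-test and 4 by the deposited q-value.

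Some differences of the dim members, none of which passed as reported, changed sign. With AM73, Ahr became 0.20 and Aldh3a1 0.18 after poly-A scaling, Aldh3a1 0.03 within arrays ending in 5 and Cyp1a2 -0.095 within those ending in 7; with 1 array left out, Ahr ran from -0.20 to 0.093, Cyp1a2 from -0.063 to 0.092 and Aldh3a1 from -0.17 to 0.022. With AM80 against DMSO, poly-A scaling gave Ahrr -0.63, Cyp1a1 -0.71, Cyp1a2 -0.47 and Aldh3a1 -0.81, and arrays ending in 5 gave Cyp1a1 -0.057. Aldh3a1 became -0.013 when centred, -0.0078 after quantile normalization, -0.028 with the name number, -0.025 with the background covariate and -0.03 to 0.092 with 1 array left out. Between the compounds, Ahrr became 0.079 with array weights, 0.09 within arrays ending in 5 and -0.16 to 0.09 with 1 array left out. There the background covariate gave Cyp1a1 0.028, Cyp1a2 -0.070 and Aldh3a1 -0.0009, and poly-A scaling gave Cyp1a2 -0.77 and Aldh3a1 -0.99. Poly-A scaling also turned Htatip2 (-0.42 against DMSO, -0.63 against AM73), Ido2 (-0.40 against AM73) and Pmm1 (-0.11 against AM73).

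Limits are the 3 arrays a group with no statement on separate cultures, the 5 dim members, for which a change hidden by background cannot be seen, and control probes that differ with AM80.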
